A study of Mus musculus with 10 samples.

Results

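The 8 genes described here encode the enzymes that write, copy and remove methyl groups on DNA cytosine in the mouse, together with their closest cofactors. They are Dnmt1, Uhrf1, Dnmt3a, Dnmt3b, Dnmt3l, Tet1, Tet2 and Tet3, chosen by gene symbol and not by any measured value. All 8 are among the 29955 genes of the count table, and 7 of the 12282 genes with enough reads to be tested. Dnmt3l was not tested.

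DNA methylation in mammals sits mostly on the cytosine of CpG pairs, and methylated promoters are usually silent. Uhrf1 recognises the half-methylated CpG left behind a replication fork and brings in Dnmt1, which copies the mark to the new strand, so both are made mainly in dividing cells. Dnmt3a and Dnmt3b place new methyl groups, and Dnmt3l is their inactive partner in germ cells. The Tet enzymes oxidise methylcytosine as the start of its removal. In blood cells Dnmt3a and Tet2 are best known as genes mutated in leukaemia, which RNA levels do not show.

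The libraries came from a murine acute lymphoblastic leukaemia (Ph+ ALL) line that carries BCR-ABL1 p185, the fusion kinase that dasatinib inhibits. All groups derive from this line, and all carry the fusion. The groups were the untreated parental line (2 libraries), the line carried through vehicle at step 1x (DMSO 1x, 1 library) and at step 16x (DMSO 16x, 1 library), and lines that grew out in dasatinib at 1 time (dasatinib 1x, 3 libraries) and at 16 times (dasatinib 16x, 3 libraries) its IC90. Cells were grown in RPMI with serum, and outgrown cells were replated at the next dose. The parental and DMSO libraries together form the drug-free class (n = 4). Each DMSO step is a single culture. The labels do not say whether the drug was still present when RNA was taken, nor whether a line is clonal. The titles call the dasatinib libraries biological replicates and the parental ones only replicates. How the replicates were derived is not stated, and the p-values cover the spread among these libraries.

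Total counts ran from 29049760 to 45813092 per library. Levels are CPM, counts scaled to a common library size by the trimmed mean of M values (TMM), and changes are log2 fold changes ± standard error from the quasi-likelihood test of edgeR. Adjusted p-values of single genes are by Benjamini and Hochberg over all 12282 genes, or over all genes of the fit where an alternative tests another number, and a gene was called at an adjusted p under 0.05. The 8 B-lineage markers summed to between 2442 and 3104 CPM in every library, and none was at 0 in any group, although Ebf1 was low (0.0955 to 0.717 CPM) and Rag1 spanned 2.98 to 76.0 CPM. Their sum was 2770 to 3104 CPM in the drug-free libraries, 2571 to 2709 at dasatinib 1x and 2442 to 2513 at dasatinib 16x. The 5 T cell and the 4 stromal markers reached at most 0.0682 CPM. Myeloid markers summed to 3.63 to 8.22 CPM, nearly all Lyz2. Erythroid markers were 3.98 to 4.70 CPM in the parental and dasatinib 1x libraries, 11.5 in DMSO 1x, 34.7 in DMSO 16x and 16.4 to 26.7 at dasatinib 16x, nearly all the globin gene Hbb-b1. The part of these shifts in the results below was not tested, and in bulk RNA fewer cells of a type and less RNA per cell cannot be told apart.

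The promoters of the 2 genes called at 16x are shown first, because both act at replication forks, and many replication genes carry sites for E2F factors and for the CCAAT-binding factor NF-Y. Windows of 250 bases before each RefSeq start (GRCm38.p6) were searched on both strands for TTTCCCGC, TTTCGCGC, TTTGCCGC and TTTGGCGC, called E2F-type here, and for CCAAT. Among 32851 such windows, 1.86% held an E2F-type match, 33.8% a CCAAT match and 0.737% both. The 8 genes had 15 windows. Of these, 2 held an E2F-type match, 1 of Dnmt1 and 1 of Uhrf1, and both also held CCAAT. The Uhrf1 window is chr17:56304063-56304312 on the plus strand. It lies outside annotated exons, downstream of another Uhrf1 start whose own window held 1 CCAAT match. The matches, in capitals, begin 185 (E2F-type), 150 and 107 (CCAAT) bases before the start, and do not overlap.

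Uhrf1 promoter: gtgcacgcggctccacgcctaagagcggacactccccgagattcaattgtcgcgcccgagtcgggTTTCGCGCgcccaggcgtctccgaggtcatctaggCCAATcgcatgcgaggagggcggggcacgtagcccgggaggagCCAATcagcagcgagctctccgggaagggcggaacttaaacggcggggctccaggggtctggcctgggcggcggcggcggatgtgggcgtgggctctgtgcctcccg

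The Dnmt1 window with the match overlaps an annotated Dnmt1 exon, and so do the 25 bases printed here, which are kept short for that reason and hold the upstream matches. They are chr9:20952835-20952859 on the minus strand, 236 to 212 bases before the RefSeq start at 20952623. The capitals are CCAAT, its reverse ATTGG overlapping it by 2 bases, and GCGCGAAA, the reverse of TTTCGCGC.

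Dnmt1 upstream matches: CCAATTGGtttccgcgcGCGCGAAA

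The other 2 Dnmt1 windows held no E2F-type match, and 1 of them held 4 CCAAT matches. For contrast, the single Dnmt3b window, chr2:153649199-153649448 on the plus strand and outside exons, held neither motif, so it has no capitals.

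Dnmt3b promoter: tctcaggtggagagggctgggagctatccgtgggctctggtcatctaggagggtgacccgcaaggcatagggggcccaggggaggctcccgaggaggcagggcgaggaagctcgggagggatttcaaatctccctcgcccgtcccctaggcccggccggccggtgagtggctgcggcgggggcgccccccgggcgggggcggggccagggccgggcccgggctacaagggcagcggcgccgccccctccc

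CpG pairs numbered 30 in the Uhrf1 window, 26 in the Dnmt1 window with the E2F-type match and 21 in the Dnmt3b window, against a median of 6 over all windows. The Tet2 window was denser still, at 51 CpG pairs, above 99.9% of windows. The only other motif match was 1 CCAAT in the Tet3 window. These are letter matches, not measured binding or methylation, and methylation was not measured in these libraries. Every E2F-type word holds a CpG, so the share over all windows may be too low a base rate for CpG-rich windows. No rate matched for CpG was computed.

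The 8 genes differed widely in level. Per kilobase of annotated exon, parental means were 114 CPM for Uhrf1 and 94.3 for Dnmt1, 10.4 for Tet3, 8.13 for Dnmt3a, 2.49 for Tet2, 2.27 for Dnmt3b and 0.0277 for Tet1, with no Dnmt3l reads. Over all 10 libraries Uhrf1 (91.6 to 124 CPM per kilobase) and Dnmt1 (78.9 to 95.7) overlapped, although Uhrf1 had the higher mean in every group. Tet3 (8.25 to 10.5) overlapped with Dnmt3a (6.97 to 8.53), and Tet2 (2.19 to 3.24) with Dnmt3b (1.07 to 3.297). The maintenance pair thus stood clear of the other 6 genes, and Tet1 and Dnmt3l stood clear below them. Exons of Dnmt3a overlap Dnmt3aos, those of Tet2 overlap Gm42567 and those of Dnmt3l overlap Aire, and with no strand setting named in the sources used here, reads of these pairs cannot be told apart.

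**Figure D1:**
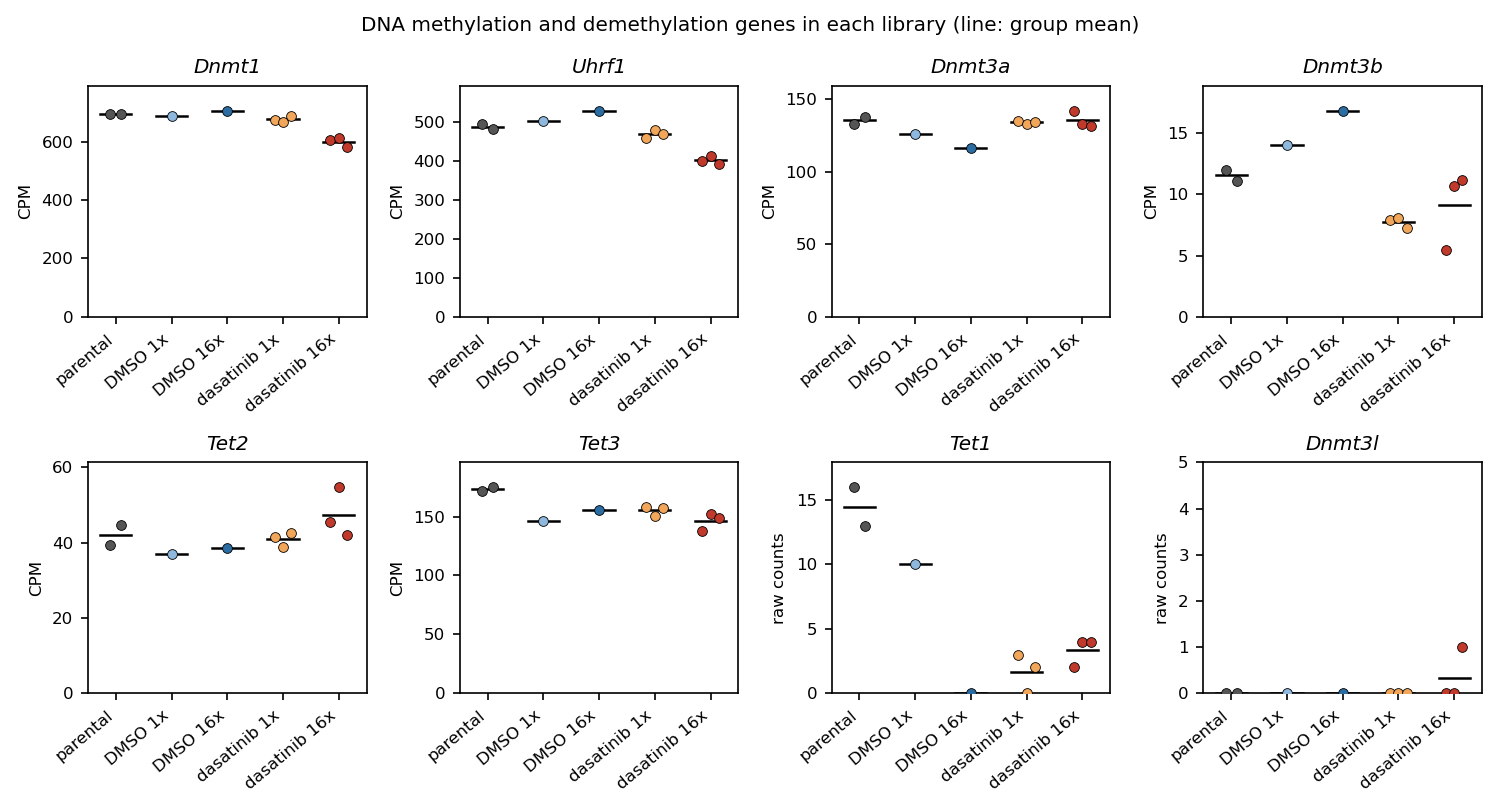
Level of each of the 8 genes (vertical axis, CPM, or raw counts for Tet1 and Dnmt3l) in each library, by group (horizontal axis), with a line at the group mean. Dnmt1 and Uhrf1 are lowest in the 3 dasatinib 16x libraries, and Dnmt3b is lower in the 3 dasatinib 1x libraries than in any drug-free library.

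The first question was whether lines that grew out in dasatinib changed these genes against drug-free cells. At 16x the maintenance pair fell and no other member was called. At 1x none of the 7 tested members was called by edgeR, with 3 at an unadjusted p under 0.05 (Dnmt3b, Uhrf1 and Tet1), 1 called by DESeq2 and 0 by limma-voom. The share of all tested genes called at 1x was 1.96% (0.822% higher, 1.14% lower), so the members' count lies near that background. Of the 12282 tested genes, 2432 had an unadjusted p under 0.05 at 1x. Over all genes DESeq2 called 853 there and limma-voom 150. At 16x, 2 of 7 fell and 0 rose, against 16.1% of all genes called in either direction, 7.79% higher and 8.33% lower. From 1x to 16x, 2 of 7 fell and 0 rose, against 2.13% called in either direction, 1.21% higher and 0.928% lower. Both called genes also had groups that did not overlap in these comparisons, as did 28.3% and 30.6% of all genes. The members' median log2 change was -0.06 at 1x and -0.22 at 16x, against -0.01 and 0.00 for all tested genes.

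Dnmt1 was measured at 696 and 695 CPM in the parental libraries, 688 in DMSO 1x and 706 in DMSO 16x. The dasatinib 1x libraries A, B and C had 674, 668 and 689 CPM, and the 16x libraries 604, 612 and 582. The 16x libraries thus lay below all 7 others, while the 1x libraries overlapped with the drug-free ones. The drug-free mean was 696 ± 7.63 CPM (SD, n = 4), the 1x mean 677 ± 10.7 (SD, n = 3) and the 16x mean 599 ± 15.3 (SD, n = 3). Against drug-free, Dnmt1 fell by 0.22 ± 0.03 on the log2 scale at 16x (13.9%, adjusted p = 0.00185), and was at -0.04 ± 0.03 at 1x (adjusted p = 0.456). From 1x to 16x it fell by 0.18 ± 0.03 (adjusted p = 0.0237).

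Uhrf1 followed the same order with a larger step. Its levels were 494 and 481 CPM in the parental libraries, 501 in DMSO 1x and 528 in DMSO 16x. At dasatinib 1x they were 458, 478 and 468 CPM, and at 16x they were 399, 412 and 390. Here the 1x libraries already lay below every drug-free library, close to parental B, and the 16x libraries lay below all the rest. The means were 501 ± 20.05 CPM drug-free (SD, n = 4), 468 ± 10.2 at 1x and 401 ± 11.0 at 16x (SD, n = 3 each). Against drug-free Uhrf1 fell by 0.32 ± 0.04 at 16x (adjusted p = 0.00100). At 1x the change was -0.10 ± 0.04 and was not called (adjusted p = 0.206). From 1x to 16x it fell by 0.22 ± 0.04 (adjusted p = 0.0273).

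Both falls against drug-free were called under all 19 alternatives, with adjusted p-values up to 0.0142 for Dnmt1 and 0.00979 for Uhrf1. The falls from 1x to 16x were less firm. Each was called in 11 of 17 alternatives, and both were lost when any 1x library, 16x A or 16x C was left out (adjusted p up to 0.137 for Dnmt1 and 0.133 for Uhrf1).

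The DMSO lines allow the same dose step to be compared without drug, with the limit that each has 1 library, assumed to vary like the other groups. From step 1x to step 16x Dnmt1 moved by 0.04 on the log2 scale in DMSO and by -0.18 in dasatinib. Uhrf1 moved by 0.07 in DMSO and by -0.22 in dasatinib. The difference between the steps was -0.21 ± 0.06 for Dnmt1 (adjusted p = 0.0481) and -0.30 ± 0.06 for Uhrf1 (adjusted p = 0.0134), and no other member was called. Of all genes, 6.74% were called for this difference and 1.37% were lower. The Dnmt1 call held in 6 of 12 alternatives and was lost without parental A, parental B, 1x A, 1x C or 16x C (adjusted p 0.0542 to 0.109) and without a filter (0.0516). The Uhrf1 call held in 12 of 12.

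Against single groups the maintenance pair gave the same order. Relative to the parental line at 16x, Dnmt1 fell by 0.21 ± 0.03 (adjusted p = 0.000561) and Uhrf1 by 0.28 ± 0.03 (adjusted p = 0.000135). Relative to DMSO 16x, Dnmt1 fell by 0.24 ± 0.04 (adjusted p = 0.000664) and Uhrf1 by 0.40 ± 0.04 (adjusted p = 1.7e-05). These comparisons share the dasatinib 16x libraries. In all, 4 of 7 tested members were called lower against parental at 16x (Tet1 and Tet3 besides this pair), beside 26.5% of all genes called (12.8% lower), and against DMSO 16x 2 fell and 1 rose, beside 35.7% of all genes called (16.8% lower, 18.9% higher). Tet1 passed the filter on low counts only through parental and DMSO 1x libraries. Its place among the 4 thus follows in part from the filter and supports nothing further.

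**Figure D2:**
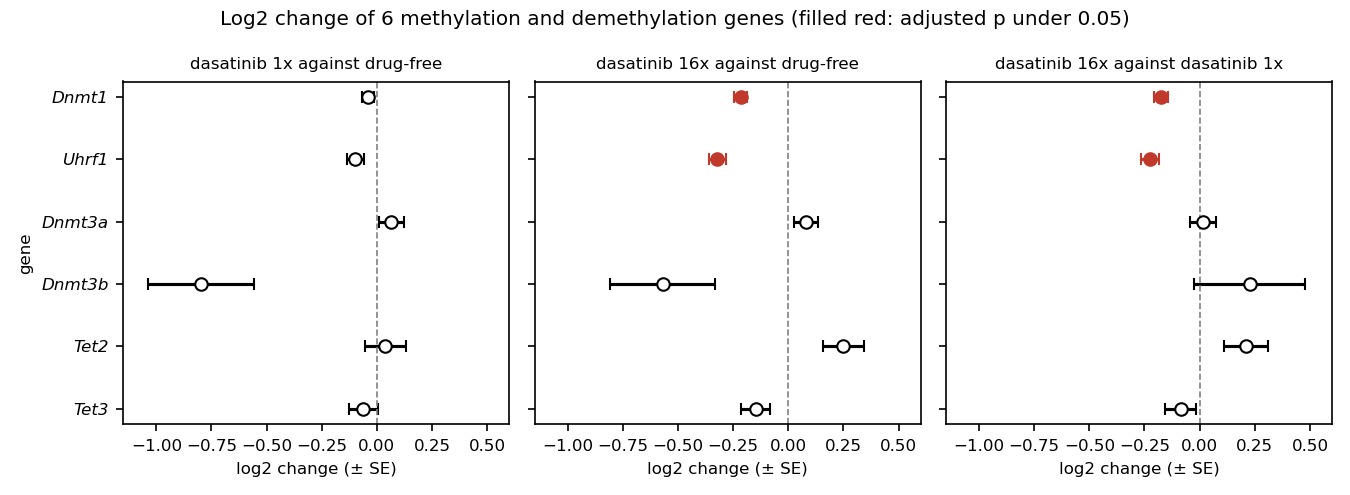
Log2 change (horizontal axis, ± SE) of 6 genes in the 3 main comparisons, with filled red points for an adjusted p under 0.05. Dnmt1 and Uhrf1 alone are called, at 16x against drug-free and at 16x against 1x; Tet1, with few reads, is left out.

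Of the de novo enzymes, Dnmt3b had the larger differences from drug-free and the wider spread, and neither was called in the main comparisons. Dnmt3a, the main de novo enzyme of blood cells, had 133 and 138 CPM in the parental libraries, 126 in DMSO 1x and 116 in DMSO 16x. It had 135, 133 and 134 CPM at dasatinib 1x, and 142, 133 and 132 at 16x. The dasatinib libraries lay around the parental values, and the 2 DMSO libraries were the lowest. Against drug-free its change was 0.06 ± 0.06 at 1x (adjusted p = 0.538) and 0.08 ± 0.06 at 16x (adjusted p = 0.357), and against the parental line at 16x it was 0.00 ± 0.04 (adjusted p = 0.975).

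The low library of Dnmt3a was DMSO 16x. Dnmt3a fell by 0.22 ± 0.05 in DMSO 16x against parental (adjusted p = 0.00696), a call lost without parental B (adjusted p = 0.0621). Correspondingly it rose by 0.22 ± 0.05 at dasatinib 16x against DMSO 16x (adjusted p = 0.00403). These comparisons share the DMSO 16x library. DMSO 16x against parental called 2 members lower, Dnmt3a and Tet1, beside 30.9% of all genes in either direction and 16.2% lower.

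Dnmt3b, the second de novo enzyme, was at 12.03 and 11.1 CPM in the parental libraries, 14.1 in DMSO 1x and 16.8 in DMSO 16x. The dasatinib 1x libraries had 7.94, 8.10 and 7.29 CPM. The 16x libraries were uneven, with 5.47 CPM in A and 10.7 and 11.2 in B and C. All 6 dasatinib libraries were thus below DMSO 1x and DMSO 16x, and the 1x libraries were also below both parental ones, but 16x C lay just above parental B. The drug-free mean was 13.5 ± 2.53 CPM (SD, n = 4), the 1x mean 7.78 ± 0.431 and the 16x mean 9.11 ± 3.16 (SD, n = 3 each). The change against drug-free was -0.80 ± 0.24 at 1x (adjusted p = 0.129) and -0.57 ± 0.24 at 16x (adjusted p = 0.134), and neither was called. At 1x the groups did not overlap for 2 members, Dnmt3b and Uhrf1, as for 23.6% of all genes. The 1x value was called in 4 of 19 alternatives, among them DESeq2 (adjusted p = 0.0215) and the fit without 16x A (0.0348).

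The ratio of Dnmt3a to Dnmt3b, which does not depend on library scaling, was 6.89 to 12.4 in the drug-free libraries, 16.4 to 18.4 at 1x and 11.8 to 25.9 at 16x. At 1x every ratio was above every drug-free one, at a mean of 17.3 ± 1.01 (SD, n = 3) against 9.82 ± 2.41 (SD, n = 4). An exact two-sided permutation test gave p = 0.0286, the smallest this design allows, and 0.0857 after adjustment over the 12 ratio tests. At 16x the exact permutation test gave p = 0.0571, and 0.114 adjusted.

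Dnmt3l, the germ cell cofactor, had 0 reads in 9 libraries and 1 read in dasatinib 16x C. No difference was detectable at this depth.

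Tet3 and Tet2 carried nearly all Tet reads. Tet3 had 171 and 175 CPM in the parental libraries, 146 in DMSO 1x and 156 in DMSO 16x. At dasatinib 1x it had 158, 150 and 157 CPM, and at 16x 138, 152 and 149. The parental libraries were thus the 2 highest, and all cultured lines, in vehicle or in drug, lay below them. Against drug-free Tet3 was at -0.06 ± 0.06 at 1x (adjusted p = 0.624) and at -0.15 ± 0.06 at 16x (adjusted p = 0.152). Against parental alone it fell by 0.24 ± 0.04 at 16x (adjusted p = 0.00173), and this call held in 15 of 15 alternatives. It also fell by 0.25 ± 0.06 in DMSO 1x against parental (adjusted p = 0.0327), as 1 of 7 members, beside 6.17% of all genes called and 2.87% called lower. That call was lost without parental A, parental B, 1x A or 1x C (adjusted p up to 0.213). Against DMSO 16x, Tet3 at dasatinib 16x was at -0.09 ± 0.06 (adjusted p = 0.236).

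Tet2 had 39.5 and 44.5 CPM in the parental libraries, 36.9 in DMSO 1x and 38.4 in DMSO 16x. It had 41.4, 38.7 and 42.6 CPM at dasatinib 1x and 45.5, 54.7 and 41.9 at 16x. Only 16x A and 16x B exceeded every drug-free library, so the groups overlapped. Its change against drug-free was 0.04 ± 0.09 at 1x (adjusted p = 0.850) and 0.25 ± 0.09 at 16x (adjusted p = 0.101), and neither was called. The ratio of Tet3 to Tet2 was 3.93 to 4.34 in the drug-free libraries, 3.70 to 3.88 at 1x and 2.78 to 3.55 at 16x, where all 3 values lay below the drug-free range. The exact two-sided permutation test at 16x gave p = 0.0286, the smallest possible, and 0.0857 adjusted over 12 tests.

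Tet1 was barely detected. Its raw counts were 16 and 13 in the parental libraries, 10 in DMSO 1x, 0 in DMSO 16x, then 3, 0 and 2 at dasatinib 1x and 2, 4 and 4 at 16x. Parental and DMSO 1x libraries held the most reads, but the lowest library was also drug-free, so the drug-free class overlapped with both dasatinib groups. Pooled over the group the level was 0.408 CPM in parental (29 reads, 95% Poisson interval 0.273 to 0.585), 0.0450 at 1x (5 reads, 0.0146 to 0.105) and 0.0780 at 16x (10 reads, 0.0374 to 0.143). The 0 reads of DMSO 16x correspond to at most 0.0804 CPM at a floor of 3 counts. These intervals and the floor cover counting error only. Tet1 passed the filter on low counts only through parental A, parental B and DMSO 1x, and it was not tested when any of them singly was left out. A lower value elsewhere therefore follows in part from the filter, and the following calls are given as values that support nothing further. Against parental the change was -3.11 ± 0.74 at 1x (adjusted p = 0.0305), the only member called there, beside 5.76% of all genes called and 2.88% called lower. It was -2.37 ± 0.65 at 16x (adjusted p = 0.0192), and DMSO 16x was also called lower (adjusted p = 0.0117). With no filter the adjusted p-values were 0.00935, 0.0113 and 0.00480. The 1x call was also lost without 1x B (0.0863) or 1x C (0.0941), and the 16x call was lost in DESeq2 (0.164). Against the drug-free class neither change was called (adjusted p = 0.238 at 1x and 0.237 at 16x).

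Dasatinib 1x against DMSO 1x called 0 of 7 members by edgeR, with 3 at an unadjusted p under 0.05 (Dnmt3b, Uhrf1 and Tet1), 1 called by DESeq2 and 0 by limma-voom, beside 13.5% of all genes called by edgeR. Of all 12282 tested genes, 3144 had an unadjusted p under 0.05. Over all genes DESeq2 called 1410 and limma-voom 1561.

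Because Dnmt1 and Uhrf1 are made mainly in S phase, their values were set beside 40 other S phase genes, from a list that does not hold them. The summed level of these genes was 8525 to 8758 CPM in the drug-free libraries, 8629 to 8655 at 1x and 7821 to 7913 at 16x, where all 3 libraries were below the other 7. At 16x against drug-free, 22 of 39 tested S phase genes fell and 0 rose, beside 8.33% of all genes lower and 7.79% higher. The median log2 change was -0.18 against 0.00 for all genes. The count was 12 without 16x C and 14 with only the libraries compared, where all-gene calls went from 1980 to 1005 and 995. Against parental 27 fell and 1 rose, beside 26.5% of all genes called. Against DMSO 16x (1 library) the median was -0.19, with genes from -1.84 to 0.46. In DMSO 16x against parental the median was 0.03, with genes from -0.58 to 2.16. At 1x against drug-free edgeR called 0 of 39, with a median of -0.04. There 13 had an unadjusted p under 0.05, DESeq2 called 2 higher and 2 lower, and limma-voom called 0. Of all 12282 tested genes, 2432 had an unadjusted p under 0.05 at 1x, and DESeq2 called 853. Prim1, the catalytic subunit of DNA primase, went from 76.8 ± 1.99 CPM (SD, n = 4) drug-free to 62.3 ± 1.25 (SD, n = 3) at 16x, a fall of 0.30 (adjusted p = 0.000779). Within this list 14 of 39 genes had a lower change at 16x than Dnmt1 and 6 had a lower change than Uhrf1.

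As a share of the S phase sum, Dnmt1 was 7.85 to 8.15% in the drug-free libraries, 7.72 to 7.98% at 1x and 7.44 to 7.82% at 16x. The 16x values were all below the drug-free ones, at a mean of 7.63 ± 0.192% (SD, n = 3) against 8.05 ± 0.135% (SD, n = 4), with an exact permutation p of 0.0571 (0.114 adjusted). Uhrf1 was 5.64 to 6.03% drug-free, 5.30 to 5.52% at 1x and 4.99 to 5.27% at 16x, with no overlap between any of the 3 classes. Both Uhrf1 comparisons with drug-free gave an exact permutation p of 0.0286, the smallest possible, and 0.0857 adjusted. For 16x against 1x the p was 0.1, the smallest that 3 against 3 allows. Because the S phase sum itself fell at 16x, the fall of Dnmt1 and Uhrf1 as a share of it was smaller than their fall in CPM. No ratio passed the adjusted threshold. With a smallest possible p of 0.0286 or 0.1, passing would have needed most of the 12 ratio tests to reach 0.0286. The adjusted values therefore cannot decide whether the shares changed.

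**Figure D3:**
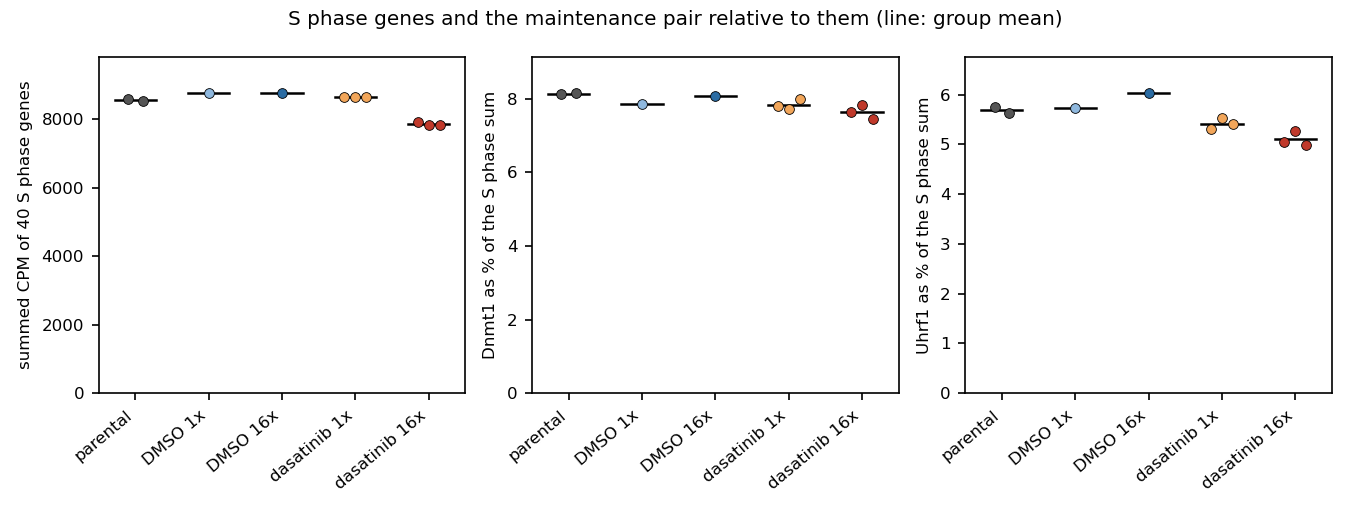
Summed CPM of 40 S phase genes, and Dnmt1 and Uhrf1 as a percentage of that sum (vertical axes), in each library by group (horizontal axis), with a line at the group mean. All 3 panels have their lowest values among the 3 dasatinib 16x libraries, at 7821 to 7913 CPM for the sum.

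The wider pathway was described with 8 lists, which hold 122 tested genes apart from the members. At 1x edgeR called 2 of these, both lower, beside 1.96% of all tested genes. At 16x it called 39 lower and 6 higher, beside 8.33% lower and 7.79% higher among all tested genes, the shares against which each list below is to be read. Of the 10 genes listed as working with or around Dnmt1 and Uhrf1, 9 were tested, and not all of them serve maintenance methylation. At 16x 5 fell and 1, a transfer RNA methyltransferase given below, rose, with a median log2 change of -0.12. Lig1, the ligase that seals lagging-strand DNA, had 272 to 294 CPM in the drug-free libraries, 265 to 270 at 1x and 218 to 235 at 16x. It fell by 0.33 (adjusted p = 0.000813). Pcna, the sliding clamp to which Dnmt1 binds, had 683 to 726 CPM drug-free and 610 to 620 at 16x, and fell by 0.19 (adjusted p = 0.00401). Both are also on the S phase list, and both fell from 1x to 16x as well, by 0.25 and 0.19 (adjusted p = 0.0184 and 0.0215), calls lost when any 1x library, 16x A or 16x C was left out, and for Pcna also without 16x B.

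The other 4 called genes of this list lie outside the naming rule and are named after their values were seen. Hells, a chromatin remodeller needed for methylation of heterochromatin, fell by 0.25 (adjusted p = 0.00487). Cdca7, which recruits Hells, fell by 0.35 (adjusted p = 0.0212), a call lost without DMSO 1x or on leaving out any single 16x library. Usp7, a deubiquitinase that binds Dnmt1 and Uhrf1, fell by 0.10 (adjusted p = 0.0473), a call that held in 4 of 19 alternatives. Trdmt1, a Dnmt relative that methylates transfer RNA, rose by 0.28 (adjusted p = 0.0137), from 12.5 ± 0.292 CPM (SD, n = 4) to 15.3 ± 0.625 (SD, n = 3). That call was lost without 16x A (adjusted p = 0.0535).

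Genes that follow the Tet enzymes in demethylation moved in both directions. Of 15 tested, 2 rose and 2 fell at 16x, with a median of -0.04. Neil1, a glycosylase that can excise oxidised bases, was 10.0 to 12.1 CPM in the drug-free libraries, 6.83 to 7.998 at 1x and 7.35 to 8.38 at 16x. Both dasatinib groups lay below the drug-free libraries and overlapped with each other. It fell by 0.52 at 1x (adjusted p = 0.0345) and by 0.46 at 16x (adjusted p = 0.0126). The 1x call was lost on leaving out parental A, DMSO 1x or any single 1x library (adjusted p up to 0.164), and the 16x call was lost without 16x C (0.0573). Apobec1, a cytidine deaminase that edits RNA, rose by 0.37 at 16x (adjusted p = 0.0211), from 17.7 ± 0.923 CPM (SD, n = 4) to 22.9 ± 2.86 (SD, n = 3), a call lost without 16x B or 16x C. The others, named after their values were seen, were Apex1, the endonuclease of base excision repair, which fell by 0.20 (adjusted p = 0.0341), and Apobec3, which rose by 0.17 (adjusted p = 0.0350). These calls held in 9 and 10 of 19 alternatives. Without 16x C the list had 0 calls.

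Of 11 tested readers of methylated CpG, 1 fell at 16x and 0 rose, with a median of 0.00. That is 9.09% called, near the 8.33% of all genes called lower. The gene was Mbd4, a reader that is also a thymine glycosylase, at 16.0 ± 1.61 CPM (SD, n = 4) drug-free and 12.4 ± 0.202 (SD, n = 3) at 16x, a fall of 0.36 (adjusted p = 0.0257). The call was lost on leaving out any single 16x library. Of 16 tested genes that supply methyl donor and Tet cofactor, 2 fell and 1 rose at 16x, with a median of -0.02. Idh1, which makes the 2-oxoglutarate that Tet enzymes use, fell by 0.45 (adjusted p = 0.0281), from 39.2 ± 5.22 CPM (SD, n = 4) to 28.7 ± 3.39 (SD, n = 3), lost without DMSO 1x, 16x B or 16x C. Ahcyl2 was low throughout, at 0.636 CPM drug-free and 0.142 at 16x (adjusted p = 0.0137), a call lost without 16x A (0.0525). Ahcyl2 passed the filter on low counts only through drug-free libraries. Its fall, 1 of the 2 on this list, thus follows in part from the filter and supports nothing further. Idh3a, a subunit of the mitochondrial isocitrate dehydrogenase and named after its values were seen, rose by 0.16 (adjusted p = 0.0306) and was called in 13 of 19 alternatives.

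**Figure D4:**
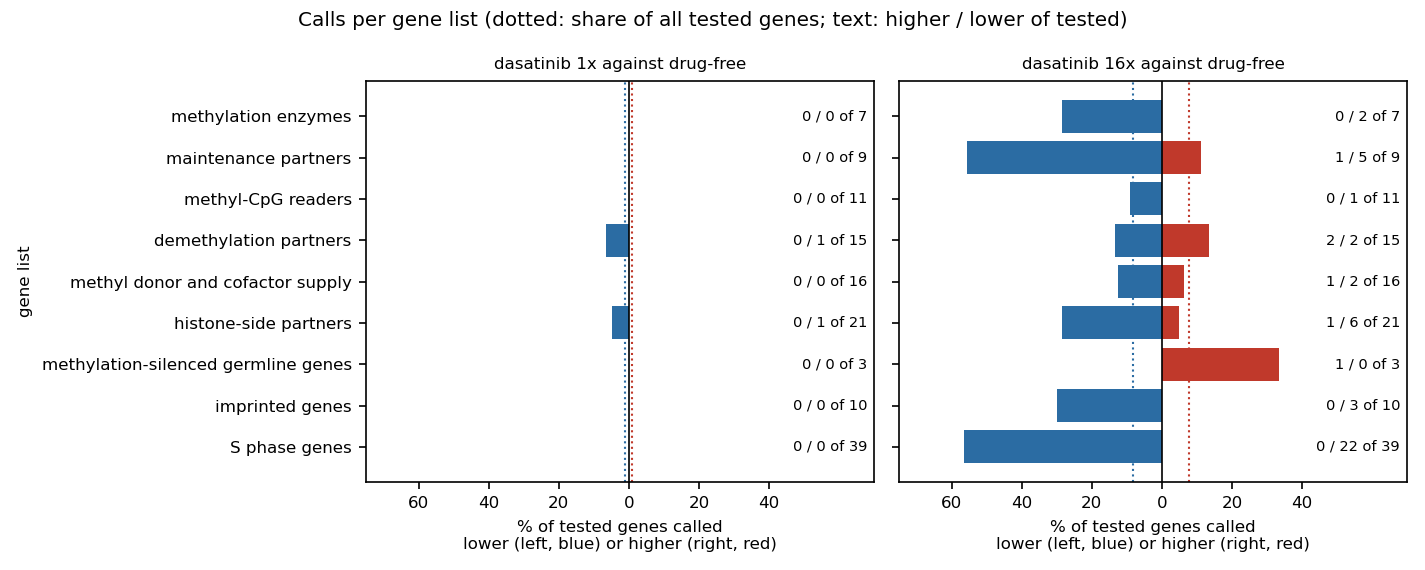
Percentage of the tested genes of each list (vertical axis) called lower (left, blue) or higher (right, red) at dasatinib 1x and 16x against drug-free, with the number of calls as text and the share of all tested genes as dotted lines. At 16x, 22 of 39 S phase genes and 5 of 9 maintenance partners were lower, against 8.33% of all genes; some lists hold few tested genes.

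Of 21 tested chromatin partners of DNA methylation, 6 fell and 1 rose at 16x, with a median of -0.06. Nsd1, a histone methyltransferase whose mark the Dnmt3 enzymes read, had 99.3 and 99.1 CPM in the parental libraries, 89.6 in DMSO 1x and 94.7 in DMSO 16x. It had 70.3, 68.3 and 69.9 CPM at dasatinib 1x and 52.5, 59.3 and 49.5 at 16x, so the 3 classes did not overlap. It fell by 0.46 at 1x (adjusted p = 0.0106), by 0.83 at 16x (adjusted p = 0.000224) and by 0.37 from 1x to 16x (adjusted p = 0.0238). The 16x call held in 19 of 19 alternatives. The 1x call was lost on leaving out any single 1x library (adjusted p up to 0.0715), and the call from 1x to 16x was also lost on leaving out any single 1x library, 16x A or 16x C (up to 0.117). Cbx5, the heterochromatin protein HP1 alpha, fell by 0.24 at 16x (adjusted p = 0.00318), from 654 ± 19.5 CPM (SD, n = 4) to 552 ± 21.0 (SD, n = 3). The other called genes, named after their values were seen, were Cbx3, Cbx1, Trim28 and Atrx, which fell by 0.17 to 0.24, and Ehmt2, which rose by 0.13. Cbx3 and Trim28 were called in 19 of 19 alternatives, Cbx1 in 16, and Atrx and Ehmt2 in 10. The 6 falls became 4 without 16x A or without 16x B.

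Germline genes whose silence is known to depend on DNA methylation had few reads. Of 25 in the table, 11 had no read in any library, and the 22 untested ones reached at most 0.136 CPM. Those without a read were 14 over the 4 drug-free libraries together, 18 at dasatinib 1x and 17 at 16x. They were 19 in the parental group (2 libraries), 19 in DMSO 1x and 17 in DMSO 16x (1 library each). Such counts depend on how many libraries are pooled and on their depth, so they do not show a change with dose. Of the 3 tested, Piwil2, a germ cell Piwi protein, rose at 16x. It had 2.35 and 2.39 CPM in the parental libraries, 2.68 in DMSO 1x, 2.12 in DMSO 16x, 3.35, 3.29 and 2.40 at dasatinib 1x, and 6.46, 4.48 and 5.42 at 16x. The 16x libraries were above all others, and the change was 1.19 ± 0.17 (adjusted p = 0.00246, called in 19 of 19 alternatives). From 1x to 16x it rose by 0.86 (adjusted p = 0.0490), called in 8 of 17 alternatives and lost on leaving out any single parental or 1x library, DMSO 1x, 16x A or 16x C.

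Of 32 imprinted genes, 12 had no read in any library and 10 were tested, and at 16x 3 fell and 0 rose, with a median of -0.22. Gnas fell by 0.22 (adjusted p = 0.0255), lost without DMSO 1x, 16x A or 16x C. Peg13 also fell by 0.22 (adjusted p = 0.0398), called in 9 of 19 alternatives. Peg12, named after its values were seen, had 34 and 38 reads in the parental libraries, 37 in DMSO 1x, 2 in DMSO 16x and 0 in all 6 dasatinib libraries. It was at least 28.99-fold lower at 1x (adjusted p = 0.126, not called) and at least 33.5-fold lower at 16x (adjusted p = 0.0439), from the drug-free mean CPM and taking the dasatinib group at 3 counts in all, and the 16x call held in 6 of 16 alternatives. Peg12 passed the filter on low counts only through parental A, parental B and DMSO 1x. Its fall, 1 of the 3 on this list, thus follows in part from the filter and supports nothing further. The near loss of Peg12 in DMSO 16x was a change without drug. Without DMSO 1x or without 16x A the list had 0 calls. Against the parental line alone, 3 of the 10 tested genes also fell at dasatinib 16x and 0 rose. Beside this, 26.5% of all genes were called and 12.8% called lower. Calls went in both directions where the single DMSO 16x library was compared. In DMSO 16x against parental 2 of the 10 tested genes rose and 2 fell, beside 30.9% of all genes called. At dasatinib 16x against DMSO 16x, 1 rose and 1 fell, beside 35.7% of all genes called.

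These enzymes were of interest because a set of genes lost all reads in the dasatinib lines. A gene was counted as lost when it had a mean of at least 1 CPM in the drug-free class and 0 reads in all 3 libraries of a dasatinib group. There were 22 such genes at 1x and 33 at 16x. None of these lost genes was a member or on any list. In the reverse sense 0 were gained in either group. A gain needed 0 reads in all 4 drug-free libraries, from 3 lines, and a mean of at least 1 CPM in the dasatinib group. That is stricter than the rule for a loss. Of the lost genes, 21 at 1x and 23 at 16x had their highest level in DMSO 16x, and 7 and 17 reached 1 CPM in the parental line. Against the parental line alone 8 genes were lost at 1x and 18 at 16x, and 0 were gained. Of these, 1 at each dose was on a list, the imprinted gene Peg12. By the same measure the single DMSO 16x library, without drug, had 3 genes lost and 2 gained against parental. Of the members, Dnmt1, Uhrf1, Dnmt3a, Dnmt3b, Tet2 and Tet3 kept a mean above 1 CPM in every group.

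Across the 10 libraries Dnmt1 and Uhrf1 followed each other (Pearson r = 0.96 of log2 CPM), and Dnmt3a and Dnmt3b moved oppositely (r = -0.81). These and the following correlations are descriptions over 10 libraries that share groups and depth. The genes most like Dnmt1 were Ncapd2, a condensin subunit (r = 0.99), and Zfp36, which promotes messenger RNA decay (0.98). Those most like Uhrf1 were E2f2, an E2F factor (0.99), and Bub1b, a spindle checkpoint kinase (0.99). Dnmt3a was closest to Bmi1, a Polycomb subunit (0.98), and Dync1li2, a dynein chain (0.97). Dnmt3b was closest to Lrp11 (0.98) and Slamf1 (0.96), both at most 1.58 CPM in any library. Tet3 was closest to Ylpm1 (0.97) and Ankrd10 (0.96), and Tet2 to Olfr975 (0.90) and Rpap1 (0.90). Tet1, with few reads, was closest to Psmbeta (0.94) and AI504432 (0.89).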

How the data were processed

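The authors deposited 1 table of raw read counts per gene symbol for the 10 libraries, in whole numbers and not normalized. Per the submitters' processing notes, CASAVA 1.7.0, Trimmomatic 0.33, TopHat2 2.0.12, BWA 0.7.10, SAMtools, HTSeq 0.6.1 and DESeq were used with mm9. Their roles and the strand setting are not given in the sources used here.

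Genes were filtered with filterByExpr (minimum count 10), scaled by TMM and tested in R 4.3.3 with edgeR 4.0.16 (robust quasi-likelihood). The 3 main comparisons used 3 classes (biological coefficient of variation 15.3%, 7 residual degrees of freedom). The comparisons with single groups, and the difference between dose steps, used 5 groups (7.27%, 5 degrees of freedom), where a lone DMSO library is assumed to vary like the others. Median log2 changes of all genes lay between -0.01 and 0.01. DESeq2 1.42.0 and limma-voom (limma 3.58.1) were alternatives, 19 in all per comparison with drug-free. Correlations used log2 CPM with a prior count of 2. Ratios were tested by exact two-sided permutation over libraries. Libraries of a group differed beyond counting noise (chi-square per degree of freedom 1.88 to 16.4), so none was merged.

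The named genes were the 8 members, at most 2 called genes of each list per main comparison with the smallest adjusted p, and the 2 genes most correlated with each member. The members and lists were chosen with earlier results of these data known. The lists overlap. Exon lengths came from GENCODE vM21 (GRCm38), not the build of the counts. The procedure was tested on simulated data.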

Additional observations from a re-analysis of the deposited data

Results flagged for a closer look

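The change from step 1x to step 16x differed between the dasatinib and the DMSO lines for 2 of the 7 tested genes, by a test of the difference itself in edgeR. Of all tested genes, 6.74% were called for this difference and 1.37% were called lower. For Dnmt1 the dasatinib step minus the DMSO step was -0.21 on the log2 scale (adjusted p = 0.0481), and for Uhrf1 it was -0.30 (adjusted p = 0.0134). The Dnmt1 call held in only 6 of 12 alternatives, and the Uhrf1 call held in 12 of 12. All 3 libraries of dasatinib 16x lay below all 3 of dasatinib 1x for both genes, while DMSO 16x lay above DMSO 1x. Each DMSO step is 1 library, and culture time cannot be told apart from the library itself there.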

How the results depend on the processing

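With members called as the count, 107 of 149 alternative values were within 1.5 times the reported count. Of 1010 alternative values of single members, 938 kept their direction and side of the threshold, 32 became called, 27 lost their call and 13 changed sign, none of them called. For 1x against drug-free (0 members), 5 groups called 2, DMSO alone as reference 3, DESeq2 1 and leaving out a library 0 to 1. For 16x against drug-free (2 members), 5 groups called 5, DMSO alone 4, and the replicate block 4. The block setting also leaves out both DMSO libraries, so that parental alone is the reference, and parental alone without the block called 3. The members added were Tet3 with the block (adjusted p = 0.00386), parental alone (0.00912) or 5 groups (0.0377), Tet1 with the block (0.0368), and Dnmt3a (0.0211 and 0.0264) and Tet2 (0.0482 and 0.0409) with 5 groups and DMSO alone. Leaving out libraries gave 0 to 2 members for 16x against 1x, 0 to 3 for 1x against parental, 0 to 1 for 1x against DMSO 1x and for DMSO 1x against parental, 0 to 4 for DMSO 16x against parental and 1 to 2 for the difference between steps. Without a filter these were 1 (16x against 1x), 2 (1x against parental) and 1 (difference between steps), and DESeq2 called 1 for 1x against DMSO 1x and 1 for DMSO 16x against parental.

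The letters A, B and C were not shown to pair samples: the deviations of 7 same-letter pairs correlated at -0.00925 to 0.0647. Such low values cannot exclude a shared origin. Between dasatinib 1x and 16x the same-letter values were 0.0647 (A), 0.0273 (B) and 0.0517 (C). The different-letter values there ran from -0.0525 to 0.00857. With the letter as a replicate block and both DMSO libraries left out, 1x against parental called 0 members in place of 1 (Tet1, adjusted p = 0.0585), and 532 genes were called for 1x and 1517 for 16x against 1x.

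Signs turned for Dnmt3a at 1x against drug-free (replicate block -0.0041, parental alone -0.014), Tet2 at 1x (block -0.0069, parental alone -0.039), Tet3 at 1x (DMSO alone 0.042) and Tet1 at 16x (5 groups 0.17). Leaving out libraries, Dnmt3a ranged from -0.017 to 0.038 for 16x against 1x, -0.0398 to 0.013 for 1x against parental and -0.029 to 0.0304 for 16x against parental, Tet2 from -0.12 to 0.053 for 1x against parental, and Dnmt3b from -0.21 to 0.23 for the difference between steps. The causes were not tested.

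Counts over all genes moved more. For 1x against drug-free, in place of 241, they were 853 (DESeq2), 150 (limma-voom), 3449 (5 groups), 3205 (DMSO alone) and 17 to 516 without a library. For 16x against drug-free, in place of 1980, they were 4542 (5 groups), 995 (only the libraries compared), 3590 (DMSO alone) and 1005 to 2765 without a library. For 16x against 1x, in place of 262, they were 805 (DESeq2), 1669 (5 groups), 1222 (only the libraries compared) and 41 to 978 without a library. Without a library they were 135 to 1295 for 1x and 1384 to 3767 for 16x against parental, 110 to 1410 for DMSO 1x against parental, and 538 to 1248 for the difference between steps. The 3-class fit counts differences among the drug-free lines as spread, which the 5-group fit does not. Tet1 and Dnmt3l had too few reads for small changes to be seen.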
